A study of Homo sapiens with 6 samples.

Results

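HLA class I and class II expression was examined through 9 genes in the human AML cell line MV4-11. The genes were the class I heavy chains *HLA-B* and *HLA-C*, the class I light chain *B2M*, the class II chains *HLA-DRA*, *HLA-DRB1*, *HLA-DPA1* and *HLA-DPB1*, the class II chaperone *CD74* and the class II transactivator *CIITA*. They were chosen by name, and each matched 1 of the 61806 gene rows of the count table. MV4-11 is a myelomonocytic line that carries the *FLT3*-ITD mutation. The 6 RNA-seq libraries comprised 3 that received a negative control shRNA, named shNC 1 to 3, and 3 whose label, shATGL 1 to 3, gives an shRNA against *ATGL*, the gene of adipose triglyceride lipase. Both groups are the same cell line, and no drug, dose or time point is given. The study's methods describe lentiviral vectors with puromycin selection and a green fluorescent reporter, and its supplement lists more than 1 shRNA sequence against *ATGL*. As listed, these sequences are reverse complements of each other apart from the TT at their ends. The labels do not say which of these sequences a library carried, or whether the libraries of a group came from separate cultures, so p-values measure the spread between these libraries, which may be technical.

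Class I molecules are built from a heavy chain, such as those encoded by *HLA-B* and *HLA-C*, and the light chain beta-2-microglobulin, and they show peptides from inside the cell to CD8+ T cells. Class II molecules pair an alpha chain with a beta chain (*HLA-DRA* with *HLA-DRB1*, *HLA-DPA1* with *HLA-DPB1*). The invariant chain CD74 fills their peptide groove until they reach the endosome, and they show peptides taken up from outside to CD4+ T cells. CIITA does not bind DNA itself but joins the RFX, CREB and NF-Y factors on the X and Y boxes of class II promoters, and loss of class II molecules from the cell surface is a known way by which AML blasts escape donor T cells.

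The promoters of these genes are shown because the X and Y boxes tie the class I and class II genes to one set of factors. RefSeq promoter sequences (GRCh38.p14, from 250 bases before to 50 bases after the gene's start) were available for 7 of the 9 genes, with no entry for *HLA-DRA* and *CIITA*. The core of the Y box, ATTGG or CCAAT on the other strand, was present in 6 of the 7 promoters and in 35.7% of all 27305 promoters. The core of the X box, written AACNGATG, or CATCNGTT on the other strand, was present in 1 of the 7, that of *HLA-DRB1*, and in 2.02% of all promoters. The stretches from base −110 to base −41 before the start are printed below 5′ to 3′ on the strand of each gene, with both cores in capitals.
HLA-B (chr6:31357220-31357289, minus strand): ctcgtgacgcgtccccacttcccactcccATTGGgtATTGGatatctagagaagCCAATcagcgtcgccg
HLA-C (chr6:31272133-31272202, minus strand): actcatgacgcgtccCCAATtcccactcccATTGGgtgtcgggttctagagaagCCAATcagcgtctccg
B2M (chr15:44711407-44711476, plus strand): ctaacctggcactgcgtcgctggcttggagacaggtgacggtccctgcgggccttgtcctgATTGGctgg
HLA-DRB1 (chr6:32589889-32589958, minus strand): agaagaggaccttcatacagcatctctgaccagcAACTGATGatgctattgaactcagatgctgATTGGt
HLA-DPB1 (chr6:33075880-33075949, plus strand): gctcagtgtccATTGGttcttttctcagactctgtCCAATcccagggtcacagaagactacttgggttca
CD74 (chr5:150412951-150413020, minus strand): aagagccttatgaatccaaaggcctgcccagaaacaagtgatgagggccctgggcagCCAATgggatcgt

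*HLA-B* and *HLA-C* both held a Y box core on the reverse strand at base −56. In *HLA-DRB1*, 22 bases separated the X box core from the Y box core, and 0.751% of all promoters held both motifs. The promoter of *HLA-DPA1* held neither. Its sequence (chr6:33080699-33080998, minus strand) lies inside the annotated span of *HLA-DPB1* (chr6:33075926-33087201). The missing cores thus describe this annotated start only, and other starts of *HLA-DPA1* were not searched. An interferon element was searched as TTTCNNTTT or AAANNGAAA and a TATA box as TATAAA or TTTATA. *B2M* held 2 overlapping matches of the interferon element, at bases −143 and −137, and *HLA-DPB1* held 1 after the start, at base 25, while 10.6% of all promoters held 1 or more. *HLA-DPB1* also held the TATA letters once, on the reverse strand at base −169, as did 12% of all promoters. A match in letters is not evidence of binding, and a missing match says only that these letters are not in this window.

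The total counts per library lay between 59674064 and 74808280. *ATGL*, listed as *PNPLA2*, was at 101, 97.0 and 107 CPM (counts scaled to the normalized size of the library) in shNC, and the libraries labelled shATGL had 102, 98.1 and 104 CPM. The log2 fold change of *PNPLA2* was −0.01 (standard error, SE, 0.06, edgeR adjusted p = 0.979), so the targeted transcript was not lower and the groups are named by their labels throughout. The library labelled shATGL 3 stood apart from the other libraries of its label. Over all genes, its counts differed from shATGL 1 and 2 by a chi-square of 84.0 and 87.6 per degree of freedom, but from the 3 shNC libraries by 24.9 to 27.7. The values without it are therefore given beside the results. All 9 marker genes of the MV4-11 line passed the filter on low counts. They summed to 1727 to 1789.8 CPM in shNC and to 1672 to 1694 CPM under the shATGL label. The lysozyme gene *LYZ*, with the highest CPM of the 9, was the 1 marker with an unadjusted p under 0.05 (lower, edgeR). Of the 9, 5 had a log2 fold change above 0 and 4 below. The largest was 0.51, for *PTPRC* (edgeR adjusted p = 0.480). *PTPRC* was at 175 and 186 CPM in shATGL 1 and 2, 88.2 CPM in shATGL 3 and 86.7 to 122 CPM in shNC. The part of these shifts in the results was not tested. Of the T cell markers, *CD3D*, *CD3G* and *CD2* were at 0 in all libraries, and no marker of mature monocytes and macrophages exceeded 18 counts in a library. The B cell markers summed to 11.2 to 12.6 CPM in shNC and 12.1 to 13.6 CPM in the libraries labelled shATGL, with *MS4A1* at 0. Of the dendritic cell markers, *CD1C* and *CLEC9A* were at 0 in all libraries except shATGL 3, with 4 and 9 counts. *LILRA4* had between 20 and 54 counts in a library, with a log2 fold change of 0.59 (edgeR adjusted p = 0.544). The list summed to 55.9 to 65.2 CPM in shNC and 56.7 to 64.9 CPM in the libraries labelled shATGL, nearly all from *FLT3*, which MV4-11 itself expresses. In bulk libraries, fewer cells that express a gene and less RNA per cell cannot be told apart.

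The levels of the 9 genes spanned a wide range. Per kilobase of the main transcript, the mean in shNC was highest for *B2M*, with 420 CPM per kb, followed by *CD74* with 132 CPM per kb and *HLA-B* with 129 CPM per kb. *HLA-C* followed with 33.7 CPM per kb, then *HLA-DRB1* with 30.5 CPM per kb. Among neighbours in this order, *HLA-C* was above *HLA-DRB1* per kilobase in 6 of 6 libraries, and *CD74* was above *HLA-B* in 5 of 6, with shNC 3 the exception. The coefficient of variation among the shNC libraries was 5.69% for *CD74*, 9.02% for *HLA-B*, 7.67% for *HLA-C* and 11.0% for *HLA-DRB1*. *HLA-DRA*, the alpha chain that pairs with *HLA-DRB1*, was at 6.92 CPM per kb, *HLA-DPA1* was at 1.29 CPM per kb, and *CIITA* and *HLA-DPB1* were the lowest with 0.358 and 0.262 CPM per kb, *CIITA* being above *HLA-DPB1* in 5 of 6 libraries. The places of *HLA-B* and *CIITA* depend on the length used, since their annotated transcripts range from 147 to 1547 bases and from 2344 to 16059 bases. With the median length, *HLA-B* stood at 299.8 CPM per kb, above *CD74* with 122 CPM per kb, and *CIITA* at 1.53 CPM per kb, above *HLA-DPA1*. Together the 9 genes made up 0.0965% to 0.120% of a library's counts.

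**Figure D1:**
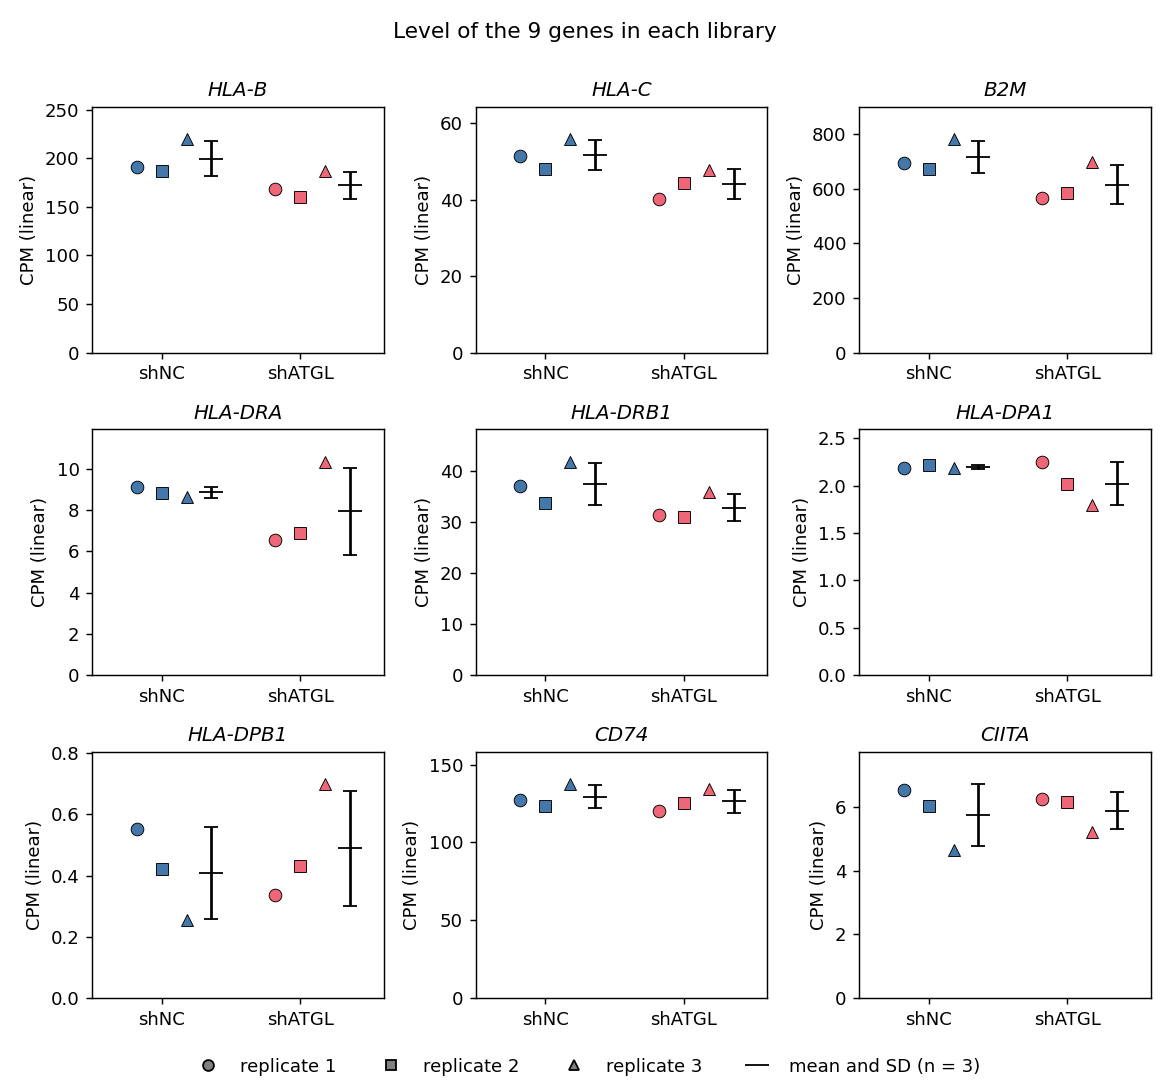
Level of each of the 9 genes in CPM (linear axis from 0) in the 3 shNC libraries (blue) and the 3 libraries labelled shATGL (red), with the replicate number as the shape and the mean and SD (n = 3) as the black bar. The groups lie apart only for *HLA-B* and *HLA-C*, by a narrow margin, and shATGL 3 is the highest of its group for every gene except *HLA-DPA1* and *CIITA*, where it is the lowest.

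The comparison asked whether the shRNA label went with a change of these genes. None of the 9 genes was called at the study's thresholds, which ask for a 2-fold change and an adjusted p under 0.05, and which 0.00522% of the 19149 genes tested passed (1 gene). With edgeR, 2 of the 9 had an unadjusted p under 0.05, both lower in the libraries labelled shATGL, against 5.94% of all genes tested that were lower and 5.77% that were higher at this level. The log2 fold change was below 0 for 7 of the 9 genes, against 48.1% of all genes, and its median was −0.16 against 0.01 for all genes. DESeq2 gave 0 of the 9 with an adjusted p under 0.05 and 1 with an unadjusted p under 0.05. Beside these stood 0.228% and 7.02% of 31959 genes, as DESeq2 was run without the filter on low counts. For limma voom with quality weights the counts were 1 and 5 of the 9, beside 10.8% and 30.6% of the 19149 genes. The count of 2 at an unadjusted p under 0.05 fell to 0 without shNC 1, shNC 3, shATGL 1 or shATGL 2, and rose to 5 without shATGL 3, where 28.8% of all genes reached this level.

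The class I genes were lower in the mean of the libraries labelled shATGL, by amounts that did not pass the adjusted threshold. *HLA-B* (ENSG00000234745, chr6:31269491-31357188, minus strand, GENCODE 29 for GRCh38) was at 191, 187.23 and 219.9 CPM in shNC 1, 2 and 3. In the libraries labelled shATGL 1, 2 and 3 it was at 169, 160.2 and 187.21 CPM, so the groups were separated by only 0.02 CPM between shNC 2 and shATGL 3. The means were 199 ± 18.0 CPM and 172 ± 13.8 CPM (SD, n = 3 each). The log2 fold change was −0.21 (SE 0.09, edgeR adjusted p = 0.416), so that *HLA-B* stood at 86.4% of its level in shNC (95% confidence interval, 75.0% to 99.5%). The exact permutation test gave p = 0.1, the smallest that 3 libraries against 3 allow.

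*HLA-C* (ENSG00000204525, chr6:31268749-31272130, minus strand) was at 51.4, 48.1 and 56.0 CPM in shNC, and the libraries labelled shATGL had 40.1, 44.5 and 47.8 CPM. Its groups also did not overlap, and shATGL 1 was the lowest library. The means were 51.8 ± 3.98 CPM and 44.2 ± 3.85 CPM (SD, n = 3 each), a log2 fold change of −0.23 (SE 0.09, edgeR adjusted p = 0.410, exact permutation p = 0.1). *HLA-B* and *HLA-C* were the 2 of 9 genes lower without overlap between the groups, as were 9.38% of all genes tested, and 0 of the 9 were higher without overlap, as were 7.93% of all genes. The annotated span of *HLA-B* overlaps that of *HLA-C* on the same strand, and the 2 coding sequences are close relatives, so the split of reads between their rows is uncertain.

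*B2M* (ENSG00000166710, chr15:44711487-44718877, plus strand), the light chain shared by all class I molecules, was the most abundant of the 9 genes. It was at 695, 669.9 and 782 CPM in shNC, and the libraries labelled shATGL had 564, 583 and 697 CPM. The library labelled shATGL 3 lay above shNC 1 and 2, while shATGL 1 and 2 lay below all shNC libraries. The means were 715 ± 58.6 CPM and 615 ± 71.9 CPM (SD, n = 3 each), with a log2 fold change of −0.22 (SE 0.10, edgeR adjusted p = 0.431, exact permutation p = 0.3).

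Of the class II DR pair, *HLA-DRA* (ENSG00000204287, chr6:32439842-32445046, plus strand) encodes the alpha chain common to all DR molecules. It was at 9.14, 8.80 and 8.62 CPM in shNC, a coefficient of variation of 2.98%. In the libraries labelled shATGL it was at 6.57, 6.90 and 10.4 CPM, a coefficient of variation of 26.4%. Both the 2 lowest values and the highest value were thus in libraries with the same label. The log2 fold change was −0.16 (SE 0.18, edgeR adjusted p = 0.743, exact permutation p = 0.4).

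*HLA-DRB1* (ENSG00000196126, chr6:32578769-32589848, minus strand), which encodes the DR beta chain, was at 37.1, 33.7 and 41.9 CPM in shNC, and the libraries labelled shATGL had 31.5, 31.1 and 35.8 CPM. The groups overlapped through shNC 2 and shATGL 3. The log2 fold change was −0.20 (SE 0.10, edgeR adjusted p = 0.492, exact permutation p = 0.2), and the interval of 73.8% to 103% of shNC included no change. *HLA-DRB1* took between 67.1% and 73.8% of the counts on the 4 HLA-DRB rows with a count, and most of the rest was on *HLA-DRB5*, a near-identical gene. With these rows summed the log2 fold change of *HLA-DRB1* was −0.14 (edgeR adjusted p = 0.534).

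The DP pair was expressed at a far lower level. *HLA-DPA1* (ENSG00000231389, chr6:33064569-33080775, minus strand), the alpha chain, was at 2.18, 2.22 and 2.19 CPM in shNC, and the libraries labelled shATGL had 2.25, 2.01 and 1.80 CPM. Its counts lay between 108 and 167. The shNC values fell inside the range of the other group, and the log2 fold change was −0.12 (SE 0.17, edgeR adjusted p = 0.795). *HLA-DPB1* (ENSG00000223865, chr6:33075926-33087201, plus strand), the beta chain, had between 18 and 42 counts per library. It was at 0.552, 0.420 and 0.254 CPM in shNC, and the libraries labelled shATGL had 0.337, 0.431 and 0.699 CPM. Its log2 fold change was 0.25 (SE 0.45, edgeR adjusted p = 0.844), with an interval of 57.5% to 247% of shNC. These counts were thus compatible with a lower, an equal or a higher level than in shNC. The 2 genes overlap on opposite strands, and the strand setting of the counting is not given in the sources used here, so reads in the overlap may have been counted on either.

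*CD74* (ENSG00000019582, chr5:150401637-150412929, minus strand), the invariant chain, was at 127, 123 and 137 CPM in shNC, and the libraries labelled shATGL had 119.9, 125 and 135 CPM. The 2 groups covered nearly the same range. Its log2 fold change was −0.03 (SE 0.07, edgeR adjusted p = 0.883, exact permutation p = 0.6), and the interval of 87.3% to 109.7% of shNC was the narrowest of the 9 genes. *CIITA* (ENSG00000179583, chr16:10866222-10943021, plus strand), the transactivator, was at 6.54, 6.05 and 4.67 CPM in shNC, and the libraries labelled shATGL had 6.27, 6.16 and 5.23 CPM. The lowest library of each group was the one numbered 3. The log2 fold change of *CIITA* was 0.03 (SE 0.16, edgeR adjusted p = 0.949, exact permutation p = 0.8), with an interval of 78.6% to 133% of shNC.

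The values of the class I genes and the DR pair moved with single libraries. Without shATGL 3, *B2M* had a log2 fold change of −0.32 (edgeR adjusted p = 0.0232) and *HLA-B* of −0.28 (edgeR adjusted p = 0.0487). These 2 of the 9 genes passed an adjusted p under 0.05, as did 14% of all 19954 genes then tested, 6.07% of them lower. *HLA-C* (log2 fold change −0.29, edgeR adjusted p = 0.0546), *HLA-DRA* (−0.40, edgeR adjusted p = 0.0620) and *HLA-DRB1* (−0.27, edgeR adjusted p = 0.111) stayed above the threshold. None of the 9 genes reached a fold change of 2 in this fit, where 1.6% of all genes were called, and 8 of the 9 had a log2 fold change below 0, against 49.1% of all genes. *CD74* remained at −0.08 (edgeR adjusted p = 0.443) and *CIITA* at 0.11 (edgeR adjusted p = 0.737). *HLA-DPA1* was at −0.04 (edgeR adjusted p = 0.914) and *HLA-DPB1* at −0.09 (edgeR adjusted p = 0.937), the latter with its direction turned. Leaving out some other libraries moved these genes toward 0, and in none of the 5 other fits without 1 library did any of the 9 have an adjusted p under 0.05 in edgeR. Without shNC 3, *HLA-B* was at −0.14, *HLA-C* at −0.17, *B2M* at −0.15 and *HLA-DRB1* at −0.11. *HLA-DRA* was at −0.04 without shATGL 1 and at −0.07 without shATGL 2.

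**Figure D2:**
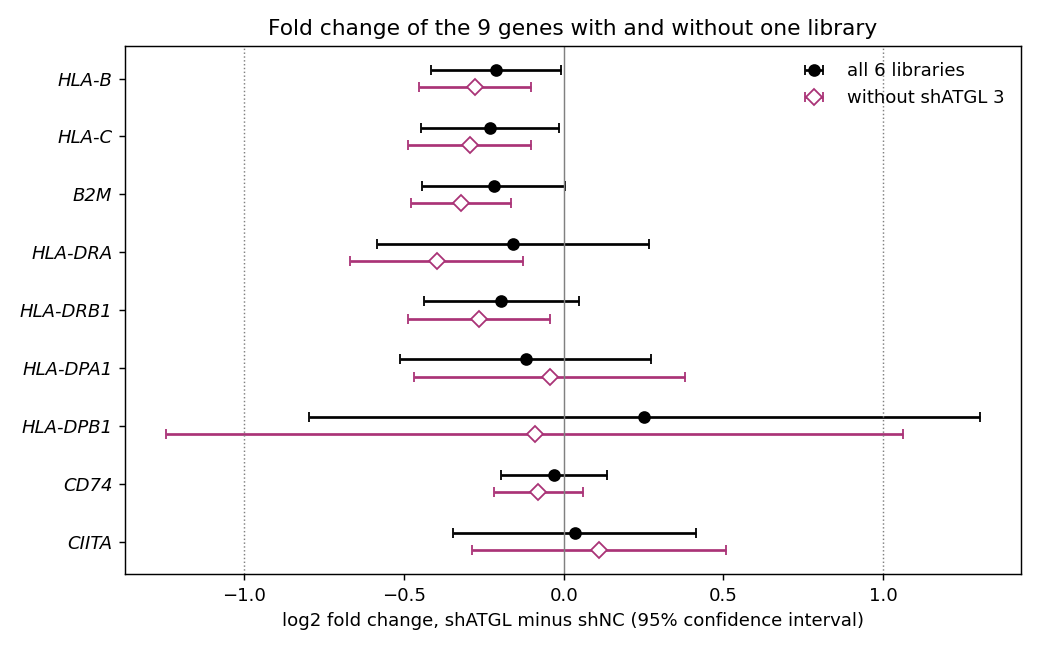
Log2 fold change of the 9 genes, shATGL minus shNC, with 95% confidence intervals from edgeR, for all 6 libraries (black circles) and without shATGL 3 (open diamonds); dotted lines mark a change of 2-fold in either direction. With all libraries only the intervals of *HLA-B* and *HLA-C* lie wholly below 0, and without shATGL 3 those of *B2M*, *HLA-DRA* and *HLA-DRB1* do so too.

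Fold changes also moved with transcript length in these libraries, with a Spearman's rho of 0.205 over 18566 genes, so that longer transcripts were higher in the libraries labelled shATGL. The main transcripts of the 9 genes have 981 to 1705 bases, except that of *CIITA* with 16059. After correction for this trend the log2 fold changes of *HLA-B*, *HLA-C* and *B2M* were −0.23, −0.25 and −0.24, close to those without it. *CIITA* turned to −0.19 (edgeR adjusted p = 0.619), or to −0.07 with the median length of its transcripts (edgeR adjusted p = 0.862). The correction also moved the median of all genes tested from 0.01 to −0.06 with either length, beside which these values are to be read.

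Ratios of counts within a library do not depend on the normalization, and 6 were compared. *HLA-DRB1* exceeded *HLA-DRA* in counts by 3.46-fold to 4.86-fold over the 6 libraries, and *HLA-C* was between 0.238 and 0.278 of *HLA-B*. The ratio of *HLA-DRA* to *CD74* was 0.0719, 0.0714 and 0.0627 in shNC and 0.0548, 0.0551 and 0.0769 in the libraries labelled shATGL. It was lowest in shATGL 1 and 2 and highest in shATGL 3. The log2 ratio of *HLA-B* to *B2M* differed between the groups by 0.01, and that of the 4 class II chains to *HLA-B* plus *HLA-C* by 0.03. The groups overlapped in each of the 6 ratios, and the smallest exact permutation p was 0.4 (1 after adjustment over the 6). Since 3 libraries against 3 cannot give a p under 0.1, this test could not have passed 0.05 for any ratio.

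Across the 6 libraries, *B2M* and the mean of *HLA-B* and *HLA-C* rose and fell together on the log2(CPM + 1) scale. Pearson's r was 0.983 (exact permutation p = 0.00556, 0.0167 after adjustment over 3 relations) and Spearman's rho 0.829 (exact permutation p = 0.0583, adjusted 0.0875). Without shATGL 1 and 2, the libraries farthest from the median of *B2M*, r was 0.956 (n = 4, exact permutation p = 0.167). *HLA-B* and *HLA-C* had an r of 0.887 (exact permutation p = 0.0264, adjusted 0.0396) and a rho of 0.943 (exact permutation p = 0.0167, adjusted 0.05). Without shNC 3 and shATGL 2 their r was 0.986 (n = 4, exact permutation p = 0.0417). These values include the difference between the groups. Within the 3 shNC libraries and the 3 labelled shATGL, r was 0.937 and 0.571 for *HLA-B* with *HLA-C*, and 0.9994 and 0.9997 for *B2M* with the mean of both, too few libraries for a test. With any 1 library left out, both relations kept their sign, with r of 0.975 to 0.999 and 0.775 to 0.955, but the number with an adjusted p under 0.05 fell from 2 to 1 or 0. No batch is given in the labels.

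No relation of *CIITA* with the mean of its target genes was detected across the libraries. With the mean of the 4 class II chains and *CD74* its r was −0.477 (exact permutation p = 0.317, the same after adjustment) and its rho −0.314 (exact permutation p = 0.564). Without shNC 3 and shATGL 3, the libraries where *CIITA* was lowest, r was 0.479 (n = 4, exact permutation p = 0.583), so the negative sign rests on these libraries. Within the 3 shNC libraries r was −0.0119 and within the 3 labelled shATGL −0.9999, too few libraries for a test. The genes in this mean differed, with r to *CIITA* of −0.87 for *CD74*, −0.71 for *HLA-DRB1* and −0.41 for *HLA-DRA*. For *HLA-DPA1* it was 0.31 and for *HLA-DPB1* 0.21, and these single pairs were not tested.

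**Figure D3:**
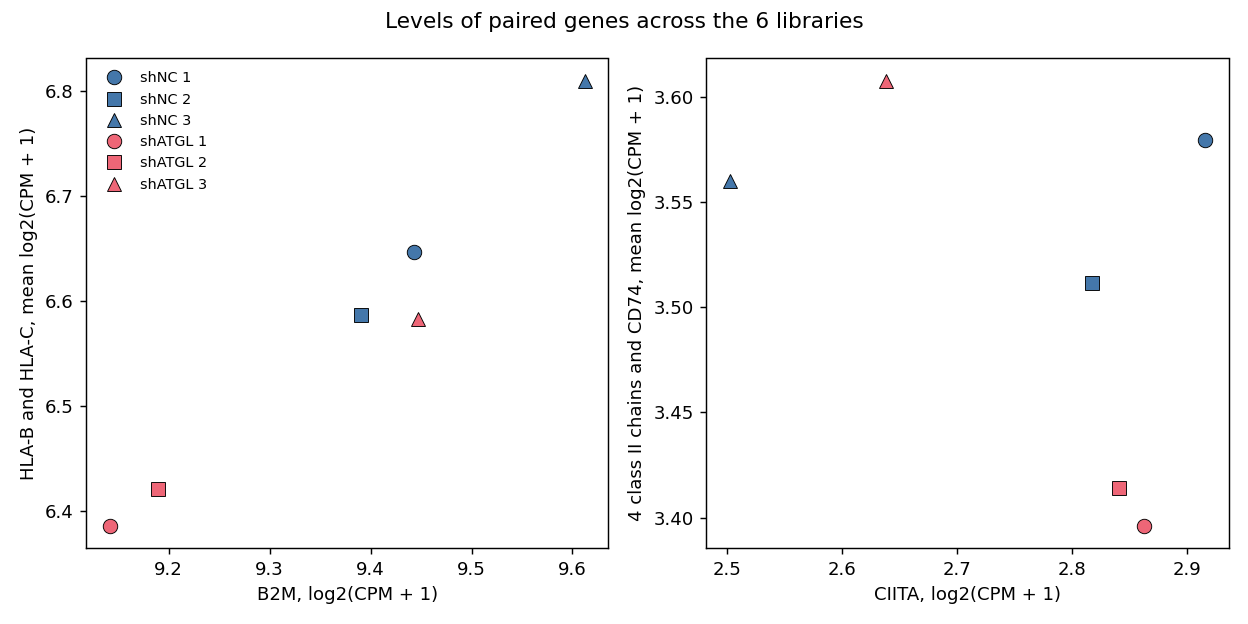
Left, the mean of *HLA-B* and *HLA-C* against *B2M*; right, the mean of the 4 class II chains and *CD74* against *CIITA*; all on the log2(CPM + 1) scale, with 1 point for each of the 3 shNC libraries (blue) and the 3 libraries labelled shATGL (red). On the left the points rise together (r of 0.983) from shATGL 1 to shNC 3, and on the right the libraries numbered 3 lie at the low end of *CIITA*.

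Such likeness was common over only 6 libraries. Of 9296 genes with a mean of at least 10 CPM, 1365 had an r of at least 0.9 with *HLA-B*, 516 with *HLA-DRA* and 117 with *CIITA*. The genes most like *HLA-B* were *EIF2D*, *BABAM1*, *LAMTOR1*, *TMEM160* and *COX7A2L*, with r of 0.997 to 0.999. For *HLA-DRA* they were *SPNS3*, *B4GALT5*, *AREL1*, *PCDHB2* and *CRKL* (r of 0.995 to 0.998), and for *CIITA* they included *FAM217B*, *HPS5*, *ZMYND11* and *NUP58* (r of 0.977 to 0.987). None of these genes belongs to the antigen presentation lists below.

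The other genes of the pathway were described from 6 lists with 65 genes, of which 62 were tested. None had an adjusted p under 0.05 with edgeR. An unadjusted p under 0.05 was reached by 7 of the 62, all lower in the libraries labelled shATGL, beside 11.7% of all genes in either direction and 5.94% lower. A log2 fold change below 0 was found for 44 of the 62, beside 48.1% of all genes. Their median was −0.05 against −0.16 for the 9 genes and 0.01 for all genes. DESeq2 gave 0 genes of the lists at the adjusted and 4 at the unadjusted level, beside 0.228% and 7.02% of the 31959 genes in that unfiltered fit. For limma voom with quality weights the counts were 6 and 21, beside 10.8% and 30.6% of all genes. With 1 library left out, the count of 7 ranged from 1 (without shNC 1, shATGL 1 or shATGL 2) to 22 (without shATGL 3, where 28.8% of all genes reached this level).

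Of the 14 genes of class I peptide processing and loading, 4 were lower at an unadjusted p under 0.05, beside 5.94% of all genes, and the median was −0.11. *PSMB8*, an immunoproteasome subunit, was at 169 ± 9.82 CPM in shNC and 147 ± 10.4 CPM (SD, n = 3 each) in the libraries labelled shATGL (edgeR adjusted p = 0.397). *PSME2*, a subunit of the proteasome activator, was at 189 ± 11.7 CPM and 168 ± 7.94 CPM (edgeR adjusted p = 0.405), and the endoplasmic reticulum chaperone *CANX* was at 1726 ± 63.6 CPM and 1585 ± 16.7 CPM (edgeR adjusted p = 0.414). The peptide transporter genes *TAP1* and *TAP2*, named after their values were seen, had log2 fold changes of −0.09 and −0.02.

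All 8 genes of class II peptide processing had a log2 fold change below 0, with a median of −0.12, and 3 were lower at an unadjusted p under 0.05, beside 5.94% of all genes. The cathepsin genes *CTSB*, *CTSH*, *CTSS* and *CTSD*, named after their values were seen, lay close to 0 and did not keep their sign. *CTSB* and *CTSH* were above 0 without shNC 3, shATGL 1 or shATGL 2, *CTSS* without shNC 3 or shATGL 2 and also with voom, and *CTSD* without shATGL 2. *IFI30*, a thiol reductase of the endosome, was at 3.97 ± 0.577 CPM in shNC and 2.69 ± 0.346 CPM (SD, n = 3 each) in the libraries labelled shATGL (edgeR adjusted p = 0.392). The cathepsin gene *CTSL* was at 28.1 ± 1.43 CPM and 24.1 ± 0.713 CPM (edgeR adjusted p = 0.397). The cathepsin inhibitor *CST3* was at 161 ± 11.0 CPM and 139 ± 13.9 CPM (edgeR adjusted p = 0.416).

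Among the other class I genes 8 of 9 were tested, with a median of −0.08, and among the other class II genes 6 of 7, with a median of −0.06. None of these 14 had an unadjusted p under 0.05. The smallest p-values were those of *HFE*, *HLA-E* and *MICA* and of *HLA-DQB1*, *HLA-DOB* and *HLA-DRB5*. *HLA-E*, which presents leader peptides of other class I chains to NK cell receptors, was at 79.2 ± 6.41 CPM and 73.4 ± 5.22 CPM (SD, n = 3 each). *HLA-DQB1* was at 12.3 ± 0.827 CPM and 10.4 ± 1.77 CPM. *HLA-G* and *HLA-DOA* had no count in any library.

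None of the 21 regulators had an unadjusted p under 0.05, and their median was 0.01, beside 0.01 for all genes. The 3 with the smallest p were *RFXANK* and *RFX5*, subunits of the RFX complex on the X box, and *NFYC*, a subunit of NF-Y on the Y box. *RFXANK* was at 79.3 ± 7.27 CPM in shNC and 70.3 ± 4.98 CPM (SD, n = 3 each) in the libraries labelled shATGL (edgeR adjusted p = 0.478), and *NFYC* was at 1453 ± 51.4 CPM and 1331 ± 128 CPM (edgeR adjusted p = 0.527). *RFX5* was at 122 ± 1.26 CPM and 115 ± 5.28 CPM (edgeR adjusted p = 0.566). Of 6 genes of the costimulation list, which also holds the inhibitory ligand gene *CD274*, 5 were tested and none had an unadjusted p under 0.05. The 3 with the smallest p were *CD86*, *CD274* and *CD58*, and *CD58*, the ligand of CD2, was at 18.4 ± 1.42 CPM and 17.4 ± 3.64 CPM.

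Without shATGL 3, 8 of the 62 genes had an adjusted p under 0.05 with edgeR, beside 14% of all genes. *CALR*, *CST3*, *NFYC*, *PSMB10* and *PSMB8* were lower, with log2 fold changes of −0.21 to −0.30, and *CREB1*, *EZH2* and *JAK2* were higher, with 0.20 to 0.55. Those of these 8 that are not named above were named after their values were seen.

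**Figure D4:**
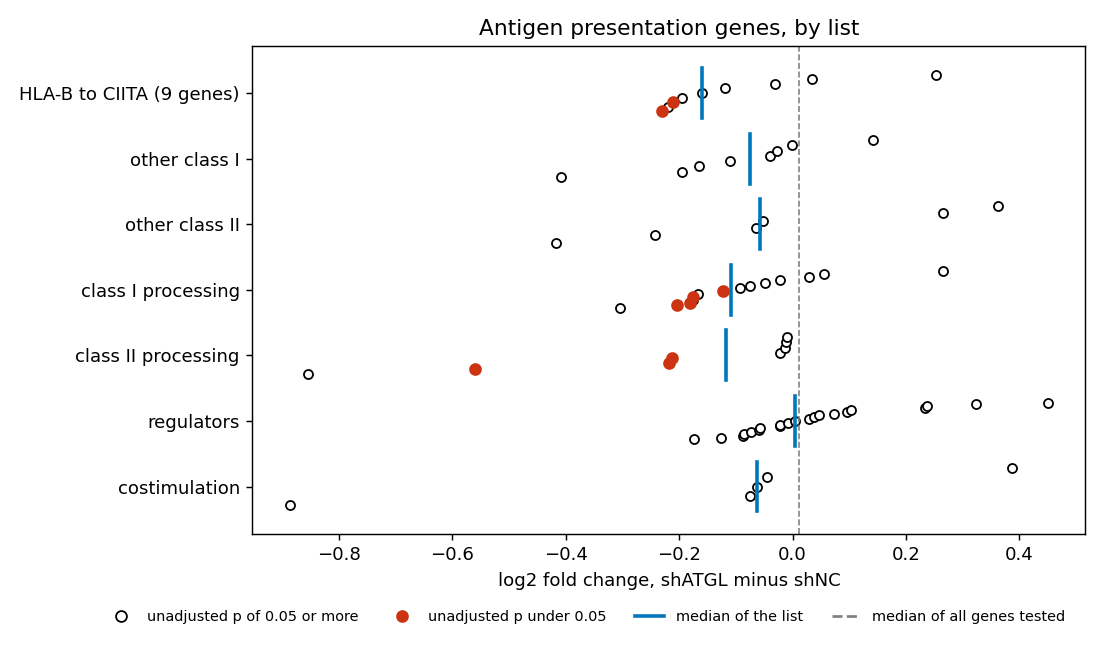
Log2 fold change, shATGL minus shNC, of the 9 genes and of the 62 tested genes of the 6 antigen presentation lists, with 1 point per gene, filled where the unadjusted p from edgeR was under 0.05. The blue bar is the median of a list and the dashed line that of all genes tested (0.01); the medians of the 9 genes (−0.16) and of both processing lists (−0.11 and −0.12) lie below it, and that of the regulators (0.01) lies on it.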

How the data were processed

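RNA-seq of 6 MV4-11 libraries was analysed (shNC 1 to 3, shATGL 1 to 3, grouped by title). The authors deposited raw read counts per gene, without normalization, for 61806 human Ensembl genes. Per the study's methods, low-quality reads were removed with FASTP. The aligner, counter, strand setting and annotation are not given in the sources used here, and the submitters' notes name the mouse build mm10 although all rows are human genes. The labels and the methods describe different RNA extraction kits, and the labels describe amplification of cDNA.

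Low counts were filtered with filterByExpr (count of 10, total of 15), the libraries were normalized by TMM, and the quasi-likelihood test of edgeR 4.0.16 (R 4.3.3) was run with no block. Benjamini-Hochberg adjustment covered the 19149 genes tested. CPM are relative to the TMM library size. Exact two-sided permutation tests used the 20 relabellings of 3 against 3 or the 720 pairings of 6 libraries, with a pseudocount of 1 for correlations. Confidence intervals are at 95%. Positions and transcript lengths are from GENCODE 29 (GRCh38), the main transcript being the longest one annotated as principal. A gene without a principal transcript was given the median length of its transcripts in the basic set, or of all where none is in it. In simulated data for this comparison, 166 of 200 genes changed 2.5-fold up or to a factor of 0.4 were called, as were 6 unchanged genes among the 19149. The changed genes were drawn from those with a mean above 1 CPM. Smaller changes and a library that stands apart from its group were not simulated.

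The genes and lists were chosen with earlier results of these data known. Of each list, genes with an adjusted p under 0.05 and the 3 with the smallest p were named, and the 5 genes most correlated with *HLA-B*, *HLA-DRA* and *CIITA*. 1 gene that this rule names is not reported here. Alternatives were DESeq2 1.42.0 and its size factors, upper-quartile normalization, limma 3.58.1 voom with quality weights, 2 other filters, a replicate block, each library left out, a length correction (natural spline, 4 degrees of freedom), summed family rows, CPM of raw library sizes and a pseudocount of 0.1. The median transcript length and the newer edgeR method were added after seeing the data.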

Additional observations from a re-analysis of the deposited data

How the results depend on the processing

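None of the 9 genes was called under any of the 17 alternatives. The number with an adjusted p under 0.05 was 0 in the reported fit and 1 with voom, and between 0 and 2 with a library left out. For the other antigen presentation genes it was 0, 6 and between 0 and 8, the highest value in each case without shATGL 3. At an unadjusted p under 0.05, upper-quartile normalization gave 0 of the 9 genes and 3 of the others, DESeq2 1 and 4, voom 5 and 21, and the length correction 1 of the 9 with either length, while a left-out library gave 0 to 5 of the 9 and 1 to 22 of the others. Of all genes, 319 were called without shATGL 3, 266 with voom and 23 with DESeq2, against 1 in the reported fit. *HLA-DPB1* turned to −0.15 with voom and ranged from −0.091 to 0.54 over the left-out libraries, *CD74* from −0.079 to 0.015 and *CIITA* from −0.10 to 0.14, while *CIITA* was at −0.19 and −0.073 under the length correction. The log2 ratios of *HLA-C* to *HLA-B* (−0.078 to 0.034), *HLA-B* to *B2M* (−0.034 to 0.044) and *HLA-DRB1* to *HLA-DRA* (−0.10 to 0.14) also changed sign over the left-out libraries. The number of correlations with an adjusted p under 0.05 fell from 2 to between 0 and 1, where 5 libraries remain. The cause of these changes was not tested. *HLA-B*, *HLA-C*, *B2M*, *HLA-DRA*, *HLA-DRB1* and *HLA-DPA1* kept a log2 fold change below 0 under all 17 alternatives. The length correction left a Spearman's rho of 0.0642 between fold change and length.

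Over 13935 genes, the deviations of same-numbered libraries correlated at 0.0599 for number 1, 0.233 for number 2 and 0.343 for number 3. The library labelled shATGL 3 correlated best with shNC 3. Both shATGL 1 and shATGL 2 correlated best with shNC 2 (0.192 and 0.233), and below 0 with shNC 3 (−0.235 and −0.291). As shATGL 1 and 2 behaved alike, the best matches at numbers 2 and 3 cannot be read as separate, and these values do not settle a pairing by number. The labels give no pairing, and whether libraries with the same number share a batch was not tested. With the replicate block 0 of the 9 genes and 0 of the others had an adjusted p under 0.05, and 4 and 14 an unadjusted p under 0.05, beside 17.3% of all genes. Under this block *HLA-B* had a log2 fold change of −0.21 (edgeR adjusted p = 0.119) and *B2M* of −0.22 (edgeR adjusted p = 0.106).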

Other observations

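Rows of class I pseudogenes carried counts beside *HLA-B* and *HLA-C*. The *HLA-H* row held 799, 790 and 973 counts for the shNC libraries 1, 2 and 3. For the libraries labelled shATGL it held 782, 639 and 769 counts. The *HLA-K* row was empty in shNC 1 and in shATGL 3, where the other libraries held between 55 and 87 counts. Among the class II rows, the pseudogene *HLA-DRB6* had 99 counts in shATGL 1 and 0 in the other 5 libraries. *HLA-DRB5* had between 984 and 1203 counts in every library.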
